A study of Mus musculus with 8 samples.

Results

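The nuclear-encoded subunits of the respiratory chain and of ATP synthase were compared between bEnd3 cells given corticosterone and bEnd3 cells in culture medium. Members were chosen by symbol: protein-coding genes of the GENCODE M21 mouse annotation whose symbol starts with Nduf, Uqcr, Cox4 to Cox8 or Atp5, together with Sdha, Sdhb, Sdhc and Sdhd. The rule took 94 of the 35852 genes in the count table, of which 21808 were protein coding. By symbol, 38 belonged to complex I, 8 were complex I assembly factors (Ndufaf1 to Ndufaf8), 4 belonged to complex II, 8 to complex III, 18 to complex IV and 18 to complex V. The symbols do not follow function in every case, and the rule leaves out cytochrome c1 (Cyc1) of complex III. Ndufa4 is now known as a complex IV subunit, Cox7a2l joins complexes III and IV into supercomplexes, and Atp5s is a coupling factor rather than a core subunit of ATP synthase.

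bEnd3 is an immortalised mouse brain endothelial cell line, and each label names bEnd3 brain endothelial cells. The tested cells received 5 µM corticosterone, the main glucocorticoid of rodents, for 24 h (4 samples), and the others are labelled as medium (4 samples). The protocol text of the medium samples also names corticosterone, but their titles and treatment label name medium, and no vehicle is named. The labels do not state whether the 4 samples of a group came from separate cultures, and the p-values rest on the spread among the samples as given, which may be technical.

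The respiratory chain passes electrons from NADH through complex I, or from succinate through complex II, to ubiquinone, then through complex III and cytochrome c to complex IV, where oxygen is reduced. Complexes I, III and IV pump protons across the inner mitochondrial membrane, and ATP synthase, complex V, uses the gradient to make ATP. Complexes I, III, IV and V combine nuclear-encoded subunits, imported from the cytosol, with a few encoded by mitochondrial DNA, whereas complex II is nuclear-encoded throughout. Promoters of the nuclear genes are known for sites of the factors NRF1, GABP (an ETS-family factor) and YY1. Glucocorticoids act through the glucocorticoid receptor, which binds a palindromic DNA element.

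Promoters were taken from RefSeq (GRCm38.p6, the 250 bases before and 50 bases after an annotated start), where 76 of the 94 members matched a gene with a promoter. The upstream 250 bases are printed for the members with the 2 largest fold changes, Ndufc2 and Ndufa8, and for 3 other members that rose and hold an NRF1 or ETS motif. Each is written 5′ to 3′ on the gene's strand, with capitals marking an NRF1 motif (CGCATGCG) or an ETS motif (CCGGAAG, or CTTCCGG on the other strand). The windows were chr7:97399753-97400002 on the plus strand for Ndufc2, chr2:36049339-36049588 on the minus strand for Ndufa8, chr5:115348959-115349208 on the minus strand for Cox6a1, chr4:24897833-24898082 on the plus strand for Ndufaf4 and chr7:30626115-30626364 on the minus strand for Cox6b1.
Ndufc2: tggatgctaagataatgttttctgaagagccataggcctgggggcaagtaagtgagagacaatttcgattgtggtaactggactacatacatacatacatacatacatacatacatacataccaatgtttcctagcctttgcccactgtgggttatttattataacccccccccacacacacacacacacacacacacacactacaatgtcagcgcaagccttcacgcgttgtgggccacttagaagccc
Ndufa8: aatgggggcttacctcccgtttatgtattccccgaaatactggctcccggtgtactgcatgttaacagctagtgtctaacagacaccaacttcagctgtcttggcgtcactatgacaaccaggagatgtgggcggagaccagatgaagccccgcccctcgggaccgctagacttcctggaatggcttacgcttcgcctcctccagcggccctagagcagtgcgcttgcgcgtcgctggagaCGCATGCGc
Cox6a1: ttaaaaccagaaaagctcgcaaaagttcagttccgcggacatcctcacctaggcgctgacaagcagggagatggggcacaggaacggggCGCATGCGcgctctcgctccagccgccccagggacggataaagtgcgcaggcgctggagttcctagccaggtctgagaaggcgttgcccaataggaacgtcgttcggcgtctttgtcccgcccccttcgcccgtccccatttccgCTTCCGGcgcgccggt
Ndufaf4: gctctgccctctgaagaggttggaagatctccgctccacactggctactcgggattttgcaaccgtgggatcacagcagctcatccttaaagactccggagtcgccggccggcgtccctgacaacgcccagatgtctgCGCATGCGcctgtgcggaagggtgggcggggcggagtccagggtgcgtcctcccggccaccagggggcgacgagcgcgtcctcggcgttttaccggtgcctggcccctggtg
Cox6b1: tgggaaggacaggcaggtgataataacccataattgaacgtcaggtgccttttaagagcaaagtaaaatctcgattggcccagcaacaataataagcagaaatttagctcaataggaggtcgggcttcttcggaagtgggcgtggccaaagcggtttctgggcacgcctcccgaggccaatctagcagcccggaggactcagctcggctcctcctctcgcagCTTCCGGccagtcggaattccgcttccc

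Ndufc2 held neither motif in these letters. In Ndufa8 the NRF1 motif began 9 bases before the annotated start, and in Ndufaf4 it began 112 bases before it. Cox6a1 held an NRF1 motif beginning 161 bases before the start and an ETS motif beginning 16 bases before it, and Cox6b1 an ETS motif beginning 28 bases before it.

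Over the whole window, on both strands, CGCATGCG was found in 11 of 76 member promoters (14.5%), against 2.07% of 27025 genes with a RefSeq promoter. CCGGAAG was found in 18 members (23.7%), against 9.93% of all genes. The YY1 motif AAGATGGC, which can overlap the end of CCGGAAG, was found in 11 members (14.5%), against 3.19% of all genes. Among the 16 members that rose, 3 held the NRF1 motif, 5 the ETS motif and 1 the YY1 motif (18.8%, 31.2% and 6.25%). Among 55 tested members with a promoter that did not pass, 8 held the NRF1 motif, 13 the ETS motif and 10 the YY1 motif (14.5%, 23.6% and 18.2%). Atp5o, which has a tested and an untested gene identifier, was not counted among these 55, and its promoter held none of these motifs. The palindromic glucocorticoid receptor motif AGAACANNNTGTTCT was in 0 of 76 members and in 3 of all genes. Its left arm AGAACA, which the full motif contains, was in 10 members (13.2%), against 21.3% of all genes. Member promoters had a median GC content of 58.3% and a median of 20 CpG, and all promoters had 52.7% and 7 CpG. The NRF1 and ETS motifs contain CpG. These matches describe letters in the window and show no binding.

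The 8 libraries held 19746067 to 46206677 estimated counts in genes, and levels are given as CPM (counts per 1000000 counts) on totals scaled by the trimmed mean of M-values (TMM). Corticosterone replicates 1 and 2 stand apart from the rest. Their deposited transcript tables carry an effective length equal to the transcript length plus 1 in 100% of 61001 transcripts of at least 1000 nt, against 0% in the other 6 libraries, where the effective length was 340 to 360 nt shorter in the median. The mean chi-square per gene between corticosterone replicates 1 and 2 was 97.0, against 3.40 between corticosterone replicates 3 and 4 and 2.16 to 4.76 between medium replicates. The main counts are therefore given for all 8 libraries and for 6 libraries, corticosterone replicates 3 and 4 against the 4 medium replicates. Log2 fold changes and adjusted p-values of single genes are for 8 libraries unless the text says otherwise. Of the 8 endothelial markers, all were detected, with summed levels of 7247 to 7588 CPM in corticosterone libraries and 6397 to 6834 CPM in medium libraries. Singly, 5 of them rose and 2 fell (Pecam1 and Erg) in 8 libraries, against 19.5% higher and 20.6% lower over all tested genes. In the 6 libraries 4 rose and 2 fell, against 18.4% higher and 18.0% lower. Summed markers of fibroblasts (4 genes) stood at 5.60 to 6.54 CPM in corticosterone libraries and 19.7 to 21.6 CPM in medium libraries. Most of that sum was Pdgfra, with a mean of 4.87 CPM in corticosterone libraries and 18.4 CPM in medium libraries. Summed markers of pericytes and smooth muscle (8 genes) stood at 1.66 to 2.61 CPM in corticosterone libraries and 2.14 to 3.62 CPM in medium libraries. Of these, 2 fell (Pdgfrb and Acta2). Myh11, not tested in 8 libraries, had a higher mean in corticosterone libraries (0.518 CPM) than in medium libraries (0.223 CPM). In corticosterone libraries markers of neurons and glia (6 genes) summed to 1.12 to 1.70 CPM, of muscle (3 genes) to 0.222 to 0.614 CPM and of leukocytes (3 genes) to 16.5 to 18.2 CPM. In medium libraries the same lists summed to 1.21 to 1.76, 0.174 to 0.452 and 16.5 to 18.6 CPM. Of these, 1 of the neuron and glia markers and 1 of the muscle markers were at 0 in all libraries. Nearly all of the leukocyte sum was Cd68, with a mean of 17.0 CPM in corticosterone libraries and 17.3 CPM in medium libraries. The part of the marker levels in the results was not tested.

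Of the 94 members, 85 passed the filter on low counts and were tested. Of these, 16 rose, 0 fell and 69 did not pass (18.8% higher, edgeR quasi-likelihood test, adjusted p under 0.05 over 13272 genes). Over all tested genes, 40.1% changed, with 19.5% higher and 20.6% lower, so the share of members that rose was near the background and the share that fell was below it. In the 6 libraries 17 members rose and 0 fell, against a background of 18.4% higher and 18.0% lower. These 12 passed in both fits, which share 6 libraries: Ndufc2, Ndufa8, Ndufb3, Ndufv3, Ndufb7, Ndufs5, Ndufaf4, Cox5a, Cox7b, Cox6a1, Cox6b1 and Atp5f1. With scaling by library size alone, 12 rose and 2 fell. Under TMM scaling, Sdha fell without medium replicate 3 and Ndufaf2 without medium replicate 4. The count of 0 falls thus depends on the scaling and on single libraries. In a bulk sample, fewer cells of a type and less RNA per cell cannot be told apart.

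Most changes were small. The median log2 fold change of the tested members was 0.06, against -0.005 over all tested genes, and the median absolute value was 0.07, against 0.14 over all tested genes. The log2 fold change was positive for 66 of 85 members, against 49.1% of all tested genes, and it lay within 0.2 of zero for 78 of 85. In 15 members every corticosterone library was above every medium library (19.3% of all tested genes), and in 0 members every one was below (20.6% of all tested genes). The members had a median transcript length of 692 nt, against 2227 nt over all tested genes. The 1712 tested genes under 1000 nt had a median log2 fold change of 0.06, with 14.1% higher and 6.31% lower, and the 63 members under 1000 nt had a median of 0.07, with 20.6% higher and 0% lower. The part of transcript length in the members' values was not tested.

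**Figure D1:**
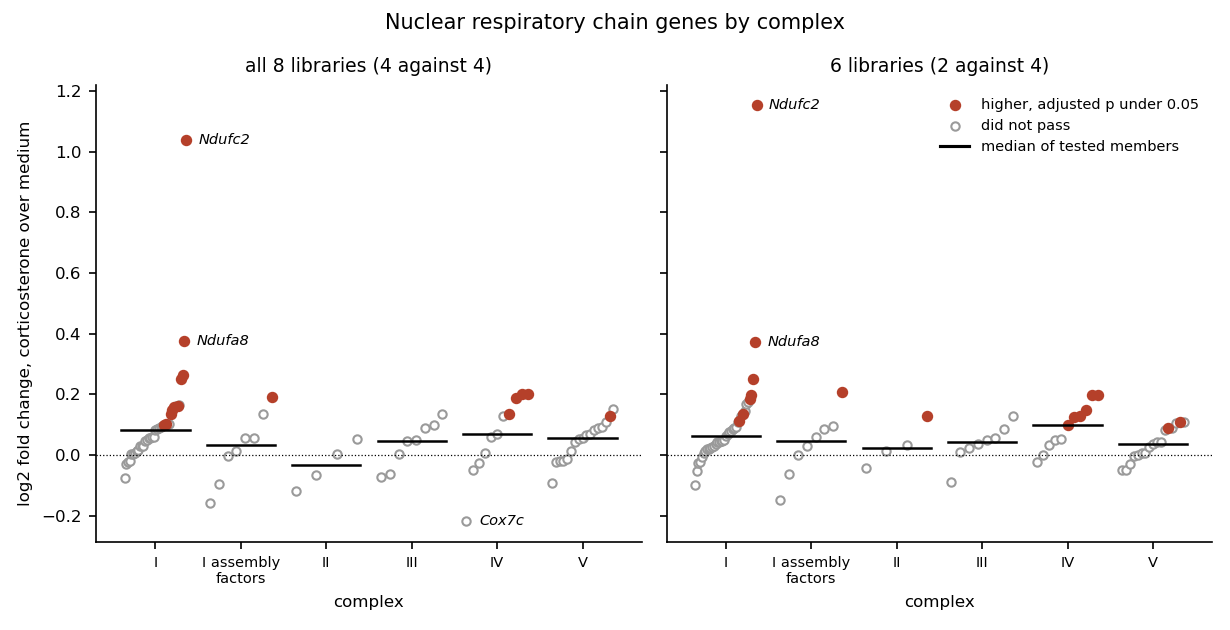
Log2 fold change (corticosterone over medium, vertical axis) of the 85 tested members by complex, in all 8 libraries (left) and in 6 libraries without corticosterone replicates 1 and 2 (right). Filled points passed at an adjusted p under 0.05, open points did not, and bars are medians. Ndufc2 lies at 1.04 (left) and 1.15 (right), and every other member lies between -0.22 and 0.38.

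Complex I held the largest changes. Of its 37 tested members, 10 rose (27.0%) and 0 fell (median log2 fold change 0.08), against 19.5% and 20.6% of all tested genes. In the 6 libraries 7 rose (median 0.06), against 18.4% of all tested genes. The count of rises was 5 without medium replicate 1, 5 without medium replicate 2, 6 when libraries were scaled by size alone and 4 with a term for corticosterone replicates 1 and 2. The largest by far was Ndufc2 (ENSMUSG00000030647.8, chromosome 7, 97400003 to 97407802, plus strand), an accessory subunit of the membrane arm.

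Ndufc2 had 139.4, 99.5, 131.8 and 148.4 CPM in the 4 corticosterone libraries, against 61.3, 62.1, 65.1 and 64.4 CPM in the 4 medium libraries. The groups did not overlap, and corticosterone replicate 2 was the lowest of its group. It averaged 130 ± 21.3 CPM in corticosterone libraries and 63.2 ± 1.82 CPM in medium libraries (SD, n = 4 each), a 2.05-fold rise (log2 fold change 1.04 ± 0.12 SE, adjusted p = 0.000657). In the 6 libraries the rise was 2.22-fold (log2 fold change 1.15, adjusted p = 3.22e-12). All of its 31-mers (100%) were unique to it among annotated genes, and its 31-mers were shared with no annotated pseudogene. Ndufc2 was the only tested member with an absolute log2 fold change of 0.5 or more. Most of its counts lay on the transcript Ndufc2-201, with 4401, 2464, 4317 and 4104 estimated counts in the corticosterone libraries and 2880, 1686, 1292 and 1849 in the medium libraries. The other listed transcript, Ndufc2-202, had 3, 229, 28 and 4 in those libraries and 0 to 14 in the medium libraries.

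Genes beside Ndufc2 were looked at after its value was seen. Of the 7 other protein-coding genes within 100 kb, 6 were tested and 5 rose, against 19.5% of all tested genes. A window chosen in this way cannot show whether the region as a whole responds. Thrsp, a gene known for its response to thyroid hormone and its link to fat synthesis, lies on the minus strand with its 3′ end 5135 nt beyond the 3′ end of Ndufc2. It had 13.7, 14.2, 14.5 and 14.2 CPM in corticosterone libraries, against 2.12, 2.43, 1.36 and 2.16 CPM in medium libraries (log2 fold change 2.79 ± 0.13 SE, adjusted p = 1.07e-08). Alg8, a glycosylation enzyme gene that ends 7817 nt before Ndufc2 on the same strand, did not pass (log2 fold change 0.00 ± 0.07 SE, adjusted p = 0.991). Gab2, Usp35, Kctd21 and Ints4 rose by log2 fold changes of 0.23, 0.42, 0.31 and 0.17, and Kctd14 was not tested.

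**Figure D2:**
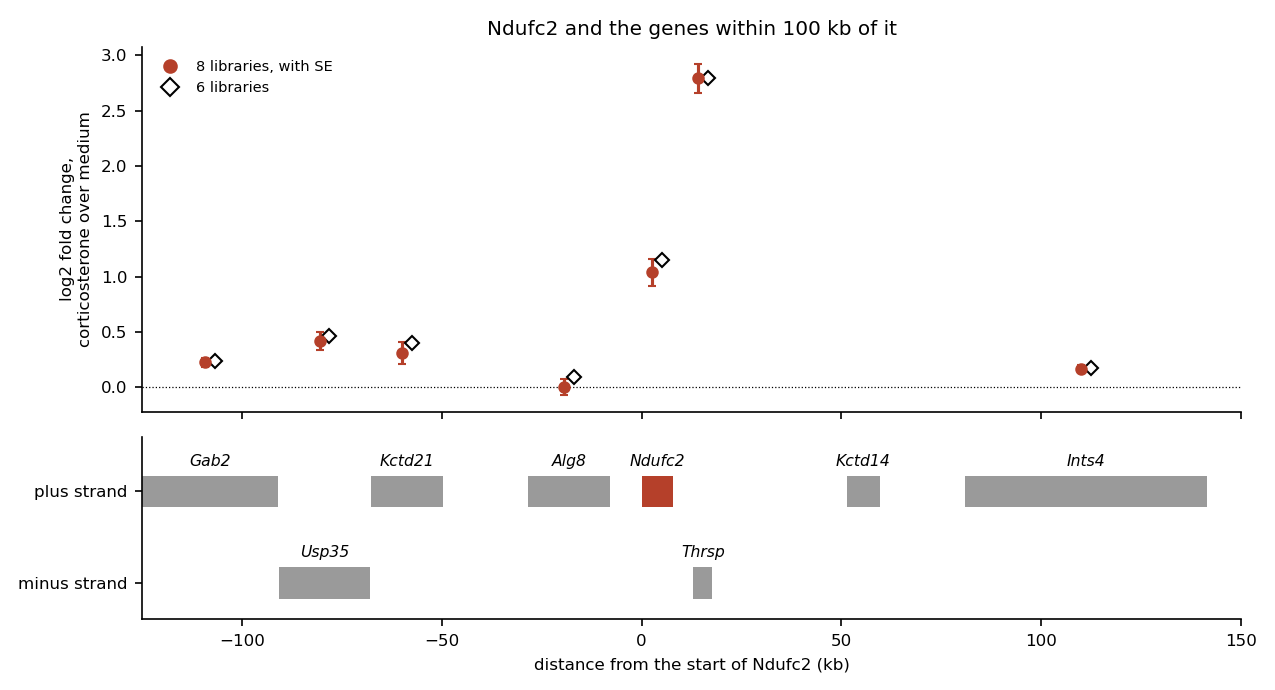
Log2 fold change (upper panel, corticosterone over medium, with SE in 8 libraries and without SE in 6 libraries) of the protein-coding genes within 100 kb of Ndufc2, above a map of the genes by distance from the start of Ndufc2 in kb (lower panel). Each value stands over the middle of the drawn gene; Gab2 runs on beyond the left edge, and Kctd14 was not tested. Thrsp at 2.79 and Ndufc2 at 1.04 stand above Alg8 at 0.00.

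Ndufa8, an accessory subunit on the side of the intermembrane space, had the smallest p of complex I. It had 155.9, 158.2, 145.2 and 164.9 CPM in corticosterone libraries, against 113.6, 119.5, 126.4 and 121.5 CPM in medium libraries. Every corticosterone library was above every medium library (log2 fold change 0.38 ± 0.04 SE, adjusted p = 1.63e-05; 0.37 and 0.00039 in 6 libraries). Ndufb3, an accessory subunit of the membrane arm, had 36.8, 37.7, 34.8 and 37.9 CPM in corticosterone libraries, against 29.6, 29.8, 32.0 and 31.2 CPM in medium libraries. Its groups were also apart (log2 fold change 0.26 ± 0.04 SE, adjusted p = 0.000267; 0.25 in 6 libraries). Ndufv3, a small accessory subunit of the NADH-oxidising end, had 44.7, 48.5, 43.6 and 41.0 CPM in corticosterone libraries, against 35.7, 39.6, 36.3 and 37.9 CPM in medium libraries. Its lowest corticosterone library was just above its highest medium library (log2 fold change 0.25 ± 0.05 SE, adjusted p = 0.0019; 0.19 in 6 libraries).

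Ndufb7 and Ndufs5, accessory subunits of the same CHCH-domain family as Ndufa8, rose by 0.14 and 0.16 on the log2 scale and rose also in the 6 libraries. The groups of Ndufs5 overlapped. Ndufa10, Ndufb6, Ndufb11 and Ndufs3 rose by 0.10, 0.16, 0.10 and 0.15 in 8 libraries (adjusted p = 0.0487, 0.0462, 0.0211 and 0.0180, edgeR) and did not pass in 6 (adjusted p = 0.381, 0.0903, 0.102 and 0.0701). Of the nuclear core subunits, which carry the flavin and iron-sulphur centres and the ubiquinone site, 1 of 7 (Ndufs3) rose. Of the accessory subunits, Ndufa4 left aside, 9 of 29 rose, and medians were 0.03 for the core and 0.09 for the accessory subunits. In the 6 libraries 1 core and 6 accessory subunits rose, with nearer medians of 0.044 and 0.075. The background was 19.5% higher in 8 libraries and 18.4% in 6. Ndufs1, the largest core subunit, had 148.5 to 152.5 CPM in corticosterone libraries and 144.7 to 147.7 CPM in medium libraries, which do not overlap, but did not pass (log2 fold change 0.03, adjusted p = 0.300). Ndufv1, which binds NADH and the flavin, stood at 0.06 (adjusted p = 0.154).

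**Figure D3:**
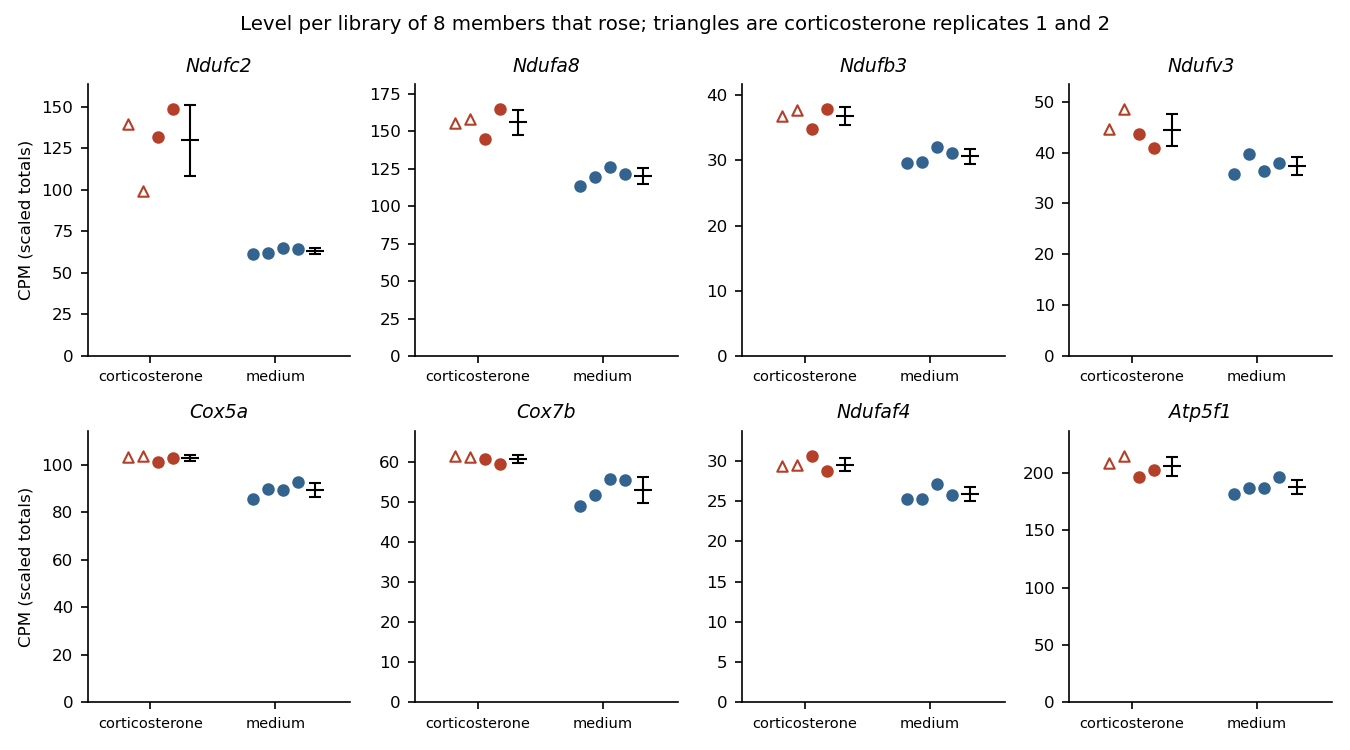
Level in CPM (vertical axis, from 0) of 8 members that rose, in the 4 corticosterone libraries (left in each panel; triangles are replicates 1 and 2) and the 4 medium libraries (right). Bars are the mean and SD. In all 8 panels the groups do not overlap, and the distance between them is largest for Ndufc2, whose mean is 130 CPM in corticosterone libraries and 63.2 CPM in medium libraries.

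The 8 complex I assembly factors help build the complex and are not part of it. Of these, 1 rose (12.5%) and 0 fell (median log2 fold change 0.03), against 19.5% and 20.6% of all tested genes. In the 6 libraries 1 rose (median 0.05), against 18.4% of all tested genes. Ndufaf4 had 29.3, 29.5, 30.6 and 28.7 CPM in corticosterone libraries, against 25.3, 25.2, 27.1 and 25.8 CPM in medium libraries. The groups were apart (log2 fold change 0.19 ± 0.04 SE, adjusted p = 0.00216; 0.21 and 0.00407 in 6 libraries). The lowest value was that of Ndufaf2, at -0.16 (adjusted p = 0.110).

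Complex II and complex III had no member past the test in 8 libraries, against 19.5% higher and 20.6% lower over all tested genes. The 4 members of complex II had a median log2 fold change of -0.03. In the 6 libraries 1 rose (median 0.02), against 18.4% of all tested genes. Sdha, the flavoprotein that oxidises succinate, had 244.3, 252.6, 255.1 and 256.4 CPM in corticosterone libraries, against 261.7, 273.3, 256.4 and 264.9 CPM in medium libraries. Its highest corticosterone library equalled the lowest medium library to 4 digits (log2 fold change -0.07 ± 0.03 SE, adjusted p = 0.0638). It passed as lower when libraries were scaled by size alone (-0.10, adjusted p = 0.0106), and also without medium replicate 3 (-0.08, adjusted p = 0.0354). Sdhb, the iron-sulphur subunit, stood at 0.05 in 8 libraries (adjusted p = 0.561) and rose by 0.13 in 6 (adjusted p = 0.0318), where corticosterone replicate 1, with 46.9 CPM, was left out. The membrane anchors Sdhc and Sdhd stood at -0.12 and 0.00.

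In complex III the 8 members lay between -0.07 and 0.13, with medians of 0.05 in 8 libraries and 0.04 in 6. Cyc1, which the rule leaves out and which is counted in a list further on, stood at -0.045 (adjusted p = 0.343, edgeR). Uqcrc1, a core subunit, was at the low end (130 ± 3.47 CPM in corticosterone libraries and 137 ± 7.84 CPM in medium libraries, SD, n = 4 each; adjusted p = 0.149, edgeR). When libraries were scaled by size alone it passed as lower (-0.10, adjusted p = 0.0359). The Rieske iron-sulphur protein gene Uqcrfs1 stood at 80.4 ± 1.17 CPM in corticosterone libraries and 80.2 ± 3.21 CPM in medium libraries (SD, n = 4 each). Uqcrq, a small membrane subunit, was at the high end (0.13, adjusted p = 0.0578) and passed as higher with DESeq2 and without medium replicate 3 or medium replicate 4.

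Of the 11 tested members of complex IV, 4 rose (36.4%) and 0 fell (median log2 fold change 0.07). Of all tested genes, 19.5% rose and 20.6% fell. In the 6 libraries 6 members rose (median 0.10), against 18.4% of all tested genes. Cox5a, a subunit on the matrix side, had 103.1, 103.8, 101.2 and 103.0 CPM in corticosterone libraries, against 85.6, 89.8, 89.4 and 92.6 CPM in medium libraries. The groups did not overlap, and the corticosterone libraries differed among themselves by less than the medium libraries (log2 fold change 0.20 ± 0.03 SE, adjusted p = 6.66e-05; 0.20 and 0.000216 in 6 libraries). Cox7b, a small membrane subunit, had 61.5, 61.3, 60.8 and 59.4 CPM in corticosterone libraries, against 48.9, 51.6, 55.8 and 55.4 CPM in medium libraries (log2 fold change 0.20 ± 0.04 SE, adjusted p = 0.00166; 0.20 in 6 libraries).

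Cox6a1, the form of subunit 6a outside striated muscle, rose by 0.19 (adjusted p = 0.00567; 0.12 in 6 libraries). Cox6b1, on the side of the intermembrane space, rose by 0.13 (adjusted p = 0.00638; 0.10 in 6 libraries). Cox4i1, the common form of the regulatory subunit 4, stood at 267.5 ± 11.01 CPM in corticosterone libraries and 256.9 ± 9.43 CPM in medium libraries (SD, n = 4 each; adjusted p = 0.208, edgeR). Cox5b and Cox7c passed in the 6 libraries (0.15 and 0.13, adjusted p = 0.0156 and 0.0477) and not in 8.

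Of the 17 tested members of complex V, 1 rose (5.88%) and 0 fell (median log2 fold change 0.06). Of all tested genes, 19.5% rose and 20.6% fell. In the 6 libraries 2 members rose (median 0.04), against 18.4% of all tested genes. Atp5f1, the b subunit of the peripheral stalk, had 208.9, 215.1, 196.6 and 202.3 CPM in corticosterone libraries, against 181.6, 187.2, 186.9 and 196.5 CPM in medium libraries. The lowest corticosterone library was just above the highest medium library (log2 fold change 0.13 ± 0.03 SE, adjusted p = 0.00729; 0.09 and 0.0424 in 6 libraries). Atp5j2, a membrane subunit, passed in the 6 libraries (0.11, adjusted p = 0.0400) and not in 8 (adjusted p = 0.369).

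Of the 5 subunits of the F1 part of ATP synthase 0 rose, with values from -0.02 to 0.08. Atp5b, the catalytic beta subunit and the member with the highest level, had 1532, 1562, 1463 and 1499 CPM in corticosterone libraries, against 1381, 1473, 1459 and 1480 CPM in medium libraries. The groups overlapped (log2 fold change 0.07 ± 0.03 SE, adjusted p = 0.0842). Atp5a1, the alpha subunit, stood at -0.02 (adjusted p = 0.594). The 3 genes of the c ring, Atp5g1, Atp5g2 and Atp5g3, stood at 0.05, -0.01 and 0.09, and none of these passed in 8 libraries with edgeR. Atp5g3 and Atp5b passed as higher with DESeq2 and without corticosterone replicate 3, Atp5g3 also without a filter on low counts, and Atp5g1 without medium replicate 3. Rises in complex V numbered 3 with DESeq2, 4 without corticosterone replicate 3, 3 without medium replicate 3 and 0 with a term for corticosterone replicates 1 and 2.

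Many members have processed pseudogenes, and in 38 of the 94 a pseudogene shared 31-mers with the member, amounting to 10% or more of the 31-mers in whichever of the pair had fewer. In 10 of the 85 tested members corticosterone replicates 1 and 2 differed by 1.25-fold or more, against 0 members between corticosterone replicates 3 and 4. Summing each member with the genes that share its 31-mers left 3 such members, Ndufa12, Ndufc2 and the assembly factor Ndufaf8. Ndufc2 shares none of its 31-mers with other genes and had 139.4 and 99.5 CPM in corticosterone replicates 1 and 2. Ndufa12, an accessory subunit of complex I, had 3.48 and 82.4 CPM in corticosterone replicates 1 and 2, with 49.2 and 52.2 CPM in replicates 3 and 4, against 43.6 to 51.1 CPM in medium libraries. Summed with its partners it had 48.9 and 83.4 CPM in corticosterone replicates 1 and 2, against 56.9 to 66.2 CPM in medium libraries, so these 2 libraries were still apart. Cox7c, a small membrane subunit of complex IV, had 15.4, 54.0, 57.1 and 61.6 CPM in corticosterone libraries, against 51.5 to 57.9 CPM in medium libraries.

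Summed with its 4 partners, all pseudogenes, Cox7c had 55.1, 57.2, 57.4 and 61.8 CPM in corticosterone libraries, against 51.7 to 58.0 CPM in medium libraries. Its log2 fold change was then 0.08 in place of -0.22. Atp5l, the g subunit of ATP synthase, which shares 31-mers with 14 pseudogenes, had 66.3 CPM in corticosterone replicate 1 alone and 89.7 CPM summed, next to 89.9 to 94.1 CPM in the other corticosterone libraries. For both genes the summed level of corticosterone replicate 1 lay near that of the other libraries. Cox5b and Ndufb4 passed as higher when summed (0.18 and 0.17, adjusted p = 0.0064 and 0.0172, edgeR). With such sums, 18 of 86 members rose and 0 fell, and the 16 rises per gene were all among them.

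**Figure D4:**
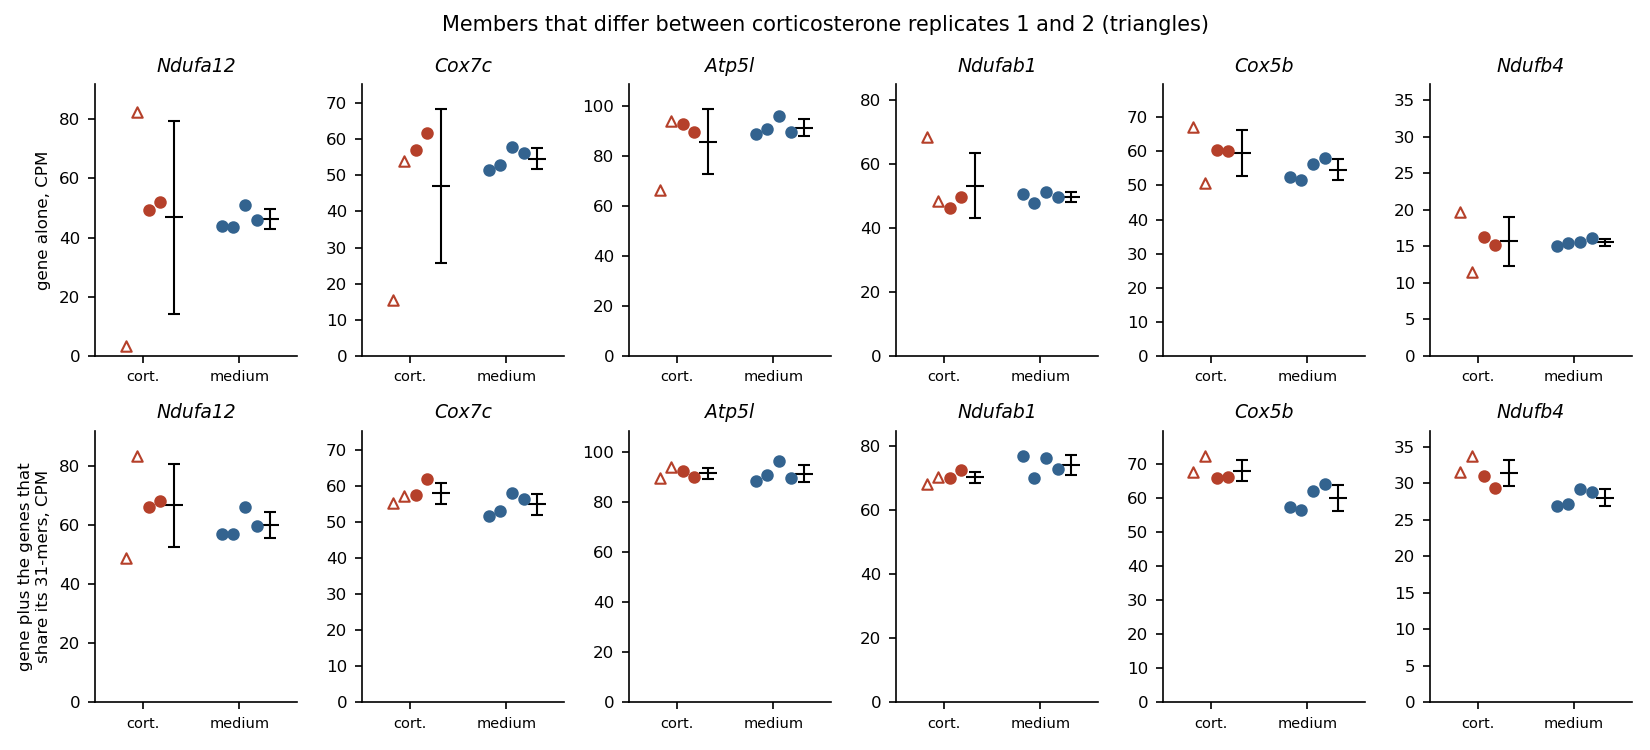
Level in CPM (vertical axis, from 0) of 6 members in which corticosterone replicates 1 and 2 (triangles) differ, for the gene alone (upper row) and for the gene summed with the genes that share its 31-mers (lower row). Corticosterone libraries are left of medium libraries, and bars are the mean and SD. Cox7c in corticosterone replicate 1 stands at 15.4 CPM alone and at 55.1 CPM summed, and Ndufa12 stays apart when summed (48.9 and 83.4 CPM).

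Levels between genes were compared per length, as estimated counts per effective length and per 1000000, with the same effective length for a transcript in every library. Here the corticosterone level is the mean of replicates 3 and 4. Medians cover the tested members only, which are 11 of 18 in complex IV, so the ranking holds for these. Complex IV had the highest median level, 435 in corticosterone libraries and 417 in medium libraries. Complexes V and III followed, with 338 and 318 in corticosterone libraries and 330 and 316 in medium libraries. Complex I members had a median of 173 in both groups. Complex II members had a median of 127 in corticosterone libraries and 135 in medium libraries, and the assembly factors 31.3 in corticosterone libraries and 30.8 in medium libraries. Atp5b was the most abundant member, at 1254 in corticosterone libraries and 1248 in medium libraries. Cox4i1 came next, at 880 in corticosterone libraries and 876 in medium libraries, and then Atp5l, at 795 in corticosterone libraries and 812 in medium libraries. Ndufc2 stood at 548 in corticosterone libraries, above every other complex I member, and at 254 in medium libraries.

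**Figure D5:**
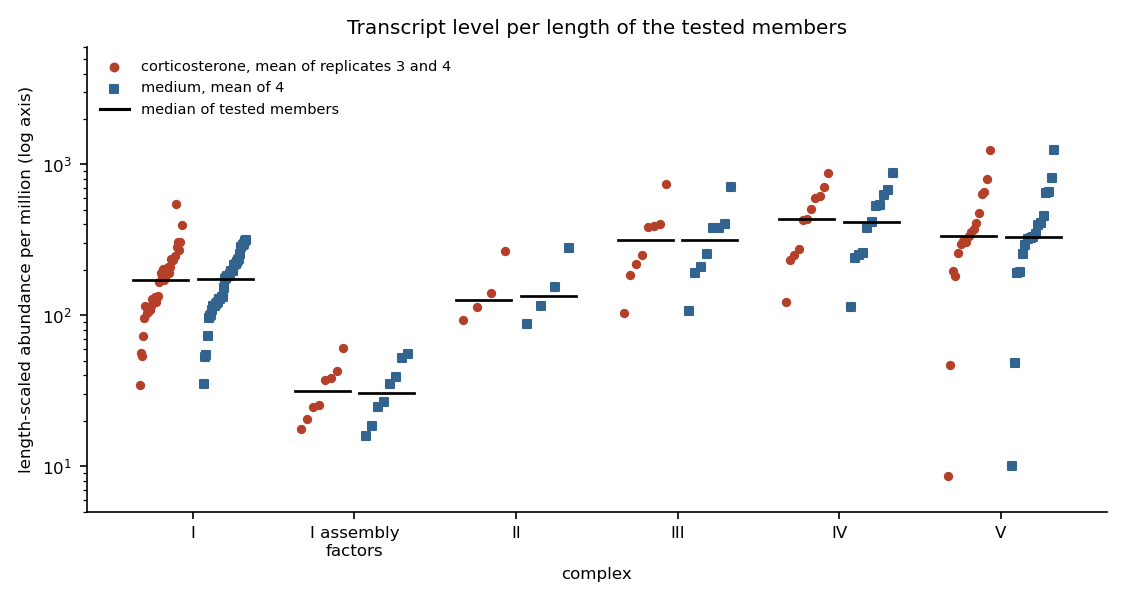
Length-scaled abundance per 1000000 (vertical log axis) of the tested members by complex, as the mean of corticosterone replicates 3 and 4 (left, circles) and the mean of the 4 medium replicates (right, squares). Bars are medians. The assembly factors have the lowest medians (31.3 in corticosterone libraries and 30.8 in medium libraries), and in complex I the highest point on the corticosterone side is Ndufc2 at 548.

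Of the 9 members not tested, 8 had at most 35 counts in either group: Ndufa4l2, Cox4i2, Cox6a2, Cox6b2, Cox7a1, Cox7b2, Cox8b and Cox8c. The ninth, the second gene identifier of Atp5o (ENSMUSG00000116933.1), had 109 counts over the corticosterone libraries, at 3.36, 0.111, 0 and 0 CPM, and 0 counts in the medium libraries. Its counts lay almost wholly in corticosterone replicate 1, and 6.0% of its 31-mers were unique to it. Several of these are forms known from muscle or testis. Cox4i2, the lung and hypoxia form of subunit 4, had 20 counts over the corticosterone libraries and 6 over the medium libraries, whereas Cox4i1 had 31840 over the corticosterone libraries and 31293 over the medium libraries. Cox7a1, the muscle form of subunit 7a, made up 0.756% ± 0.258 of Cox7a1 and Cox7a2 together in corticosterone libraries and 1.16% ± 0.583 in medium libraries (SD, n = 4 each, length-scaled). Cox8c had 0 counts in every library, which allows up to 3 counts in each, or 0.0636 to 0.151 CPM by depth, a limit that covers counting error only.

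Shares within sets of paralogues and of transcripts were tested with a two-sided exact permutation test over the 8 samples, whose smallest possible p is 0.0286. None of the 9 shares tested passed after Benjamini-Hochberg adjustment (smallest adjusted p = 0.857, exact permutation test). A single share with fully separate groups would reach an adjusted p of 0.257, and 6 of the 9 would have to separate for any to pass, so this test says little about stability. In the c-ring set, Atp5g3 made up 58.4% ± 2.29 in corticosterone libraries and 59.0% ± 1.40 in medium libraries (SD, n = 4 each). Atp5g1 made up 37.7% ± 2.80 in corticosterone libraries and 36.7% ± 1.44 in medium libraries, and Atp5g2 3.99% ± 0.517 in corticosterone libraries and 4.31% ± 0.177 in medium libraries. Of the transcripts of Atp5c1, the gamma subunit, Atp5c1-201 made up 27.8%, 55.6%, 19.8% and 22.8% in the corticosterone libraries, against 24.5% to 26.9% in the medium libraries. Corticosterone replicate 2 was the high one and replicates 3 and 4 were below every medium library. With the deposited TPM of 6 libraries the share was 21.3% in corticosterone libraries and 26.0% in medium libraries (exact permutation p = 0.0667, the smallest that 2 against 4 allows).

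The same chain has subunits encoded by mitochondrial DNA, and most of their mRNAs are polyadenylated. Of 13 tested, 0 rose and 1 fell (mt-Nd2, log2 fold change -0.10 ± 0.03 SE, adjusted p = 0.0252). The background was 19.5% higher and 20.6% lower. In the 6 libraries mt-Nd3, mt-Co1, mt-Co2 and mt-Co3 rose, by 0.79, 0.17, 0.20 and 0.14, and 0 fell. Corticosterone replicate 2 was apart here too: mt-Co2 had 67.2 CPM there and 2629 to 2763 CPM in the other corticosterone libraries, against 2319 to 2386 CPM in medium libraries. For mt-Atp8, whose reading frame overlaps that of mt-Atp6, it had 2105 CPM. The other corticosterone libraries had 66.8 to 91.0 CPM for mt-Atp8, and medium libraries 80.0 to 93.9 CPM. Replicate 1 was apart as well for mt-Atp6, which had 4013, 963, 2168 and 1967 CPM in the 4 corticosterone libraries. Medium libraries had 1937 to 2081 CPM for mt-Atp6.

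Other assembly factors, with cytochrome c and cytochrome c1, made a list of 45 genes, of which 44 were tested. Of these, 8 rose and 0 fell (median log2 fold change 0.06), against a background of 19.5% higher and 20.6% lower. In the 6 libraries 5 rose and 0 fell (median 0.09), and when libraries were scaled by size alone 6 rose and 0 fell. Coa7, an assembly factor of complex IV, had 22.9, 21.1, 20.6 and 21.8 CPM in corticosterone libraries, against 16.3, 16.6, 17.5 and 17.0 CPM in medium libraries (log2 fold change 0.36 ± 0.05 SE, adjusted p = 6.12e-05). Coa5, another complex IV factor, rose by 0.13 (adjusted p = 0.00114).

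Regulators of mitochondrial transcription and biogenesis made a list of 20 genes, of which 18 were tested. Of these, 2 rose (Tfb2m and Sirt3) and 7 fell (Pprc1, Nrf1, Gabpb1, Tfam, Polrmt, Polg and Sirt1). Their median log2 fold change was -0.05. The background was 19.5% higher and 20.6% lower. In the 6 libraries 1 rose and 7 fell (median -0.09), and when libraries were scaled by size alone 0 rose and 8 fell. Gabpb1, the partner subunit of GABP, had 56.7, 57.2, 58.3 and 58.0 CPM in corticosterone libraries, against 67.4, 65.0, 64.8 and 66.3 CPM in medium libraries (log2 fold change -0.20 ± 0.03 SE, adjusted p = 5.36e-05). Nrf1 had 34.8, 34.0, 33.6 and 35.2 CPM in corticosterone libraries, against 38.8, 39.0, 39.8 and 41.0 CPM in medium libraries (-0.20 ± 0.03 SE, adjusted p = 0.000396). For both genes every corticosterone library was below every medium library. Tfam, the packaging and transcription factor of mitochondrial DNA, fell by 0.17 on the log2 scale (adjusted p = 0.00356). Ppargc1a, a coactivator known to drive mitochondrial biogenesis, was at most 0.0697 CPM in every library and was not tested.

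Of the 16 enzymes of the citric acid cycle and of pyruvate dehydrogenase, all were tested, and 2 rose and 2 fell (median log2 fold change 0.00). The background was 19.5% higher and 20.6% lower. In the 6 libraries 2 rose and 3 fell. Pdha1, a catalytic subunit of pyruvate dehydrogenase, had 148.3, 146.1, 152.1 and 150.5 CPM in corticosterone libraries, against 118.6, 120.3, 119.1 and 121.9 CPM in medium libraries (log2 fold change 0.32 ± 0.02 SE, adjusted p = 2.98e-07). Mdh2 rose by 0.11, and Suclg2 and Pdhb fell by 0.17 and 0.15.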

How the data were processed

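The authors deposited a table of estimated counts per gene (kallisto 0.46.1 and the builds mm10 and GRCm38 stand in the submitters' processing notes; for the index, the strand setting and the gene summation the protocol is not given in the sources used here) and, per library, transcript tables. Per the file headers, the authors' transcript tables hold estimated counts, lengths, effective lengths and TPM, the abundance kallisto computes per effective length and scales to 1000000. Per the labels, libraries were directional and poly(A)-selected. Estimated counts were rounded and tested with edgeR 4.0.16 (R 4.3.3): filterByExpr, TMM scaling, a robust quasi-likelihood fit with group as the single term, and Benjamini-Hochberg adjustment over 13272 genes at 0.05; the SE is the log2 fold change divided by the root of F. Members, lists and tests were chosen with earlier results of these data known. Depth was 19746067 to 46206677 counts. Replicate numbers are shared by the groups, but same-numbered libraries did not deviate together (correlations -0.09 to 0.03). With corticosterone replicates 1 and 2 apart from the rest, this check cannot exclude pairing. Length-scaled abundance divided estimated counts by the mean effective length over the 6 libraries without corticosterone replicates 1 and 2. Genes sharing at least 10% of the smaller gene's 31-mers were summed for 1 alternative.

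Genes described in full include the 2 members per complex with the smallest p among those past the threshold. They also include members with an absolute log2 fold change of 0.5 or more, a fixed set of subunits, and paralogues. The rest are members that lost their call in 6 libraries, untested members, and the 2 genes with the smallest p in each other list. Ndufb7, Ndufs5, Ndufv3, members that passed in 6 libraries or as sums alone, members named for their extreme value or for their difference between corticosterone replicates 1 and 2, other called genes of the lists and the neighbours of Ndufc2 were named after their values were seen. Scripts were tested on simulated data. DESeq2 1.42.0, other scalings, filters, libraries and terms were tried as alternatives. Values of 1 member are not reported here.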

Additional observations from a re-analysis of the deposited data

Results flagged for a closer look

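Of 170 groups of 4 libraries (85 tested members in each condition), 12 had 1 library far from the others by Dixon's criterion, which chance alone gives in about 1 group in 20. Corticosterone replicate 1 held 4 of them. Ndufab1 had 68.25 CPM there and 46.2 to 49.5 CPM in the other corticosterone libraries, Ndufb2 17.76 against 19.1 to 19.4, Cox7c 15.45 against 54.0 to 61.6, and Atp5l 66.35 against 89.5 to 94.0. Corticosterone replicate 2 held 3: Ndufa13 with 55.19 CPM against 50.5 to 50.9, Uqcrq with 75.28 against 72.3 to 72.8, and Atp5o with 149.4 against 137.9 to 139.8. Corticosterone replicate 3 was low for Atp5j (92.63 CPM against 102.7 to 103.7). Corticosterone replicate 4 was low for Ndufa1 (10.98 CPM against 12.7 to 13.0) and high for Ndufs1 (152.5 CPM against 148.5 to 148.7). Medium replicate 3 was high for Ndufa4 (50.3 CPM against 45.57 to 45.64) and Ndufv2 (94.92 CPM against 89.55 to 90.02). None of these 12 members passed the test in 8 libraries.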

How the results depend on the processing

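The count of 16 members that rose was 12 with scaling by library size alone, 19 with DESeq2, 17 without a filter on low counts (93 tested), 17 in 6 libraries, 18 of 86 with gene families summed and 13 with the replicate block. With a term for corticosterone replicates 1 and 2 it was 8 (Ndufa8, Ndufb3, Ndufc2, Ndufv3, Ndufaf4, Cox5a, Cox6a1 and Cox7b). Leaving out 1 library at a time gave 11 to 20 rises, 11 without medium replicate 1 or medium replicate 2. The count of 0 falls was 2 with scaling by library size alone (Sdha and Uqcrc1), and 0 to 1 with 1 library left out (Sdha without medium replicate 3, Ndufaf2 without medium replicate 4). Whether the replicate numbers pair the samples is not known, so the replicate block is given as an alternative only. With 1 library left out, the median of complex I ranged from 0.061 to 0.091 and that of complex II from -0.042 to -0.011. Ranges were 0.035 to 0.059 for complex III, 0.065 to 0.102 for complex IV and 0.039 to 0.078 for complex V. For the assembly factors the range was -0.001 to 0.053. The complex II median changed sign, from -0.03 in 8 libraries to 0.02 in 6. Cox7c stood at -0.22 in 8 libraries (did not pass) and rose by 0.13 in 6, and no member named by rule changed sign with a call; Cox7c was named after its values were seen. The share of Cox6b2 differed by -0.135 percentage points without corticosterone replicate 4 (exact permutation p = 0.0286, unadjusted and the smallest that 3 against 4 allows; over all 8 libraries the gene had 7 corticosterone and 9 medium counts), and its difference ranged from -0.135 to -0.0344 with 1 library left out. The cause was not tested. Depth limits the untested members: Cox6a2, Cox7b2 and Cox8b had at most 2 counts in a group.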
